A study of Mus musculus with 8 samples.

Results

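Foxp1, Foxp2 and Foxp4 were the 3 genes described here, chosen by name from the 32285 genes of the RNA matrix, together with the 88 of 116068 ATAC peaks that lay over the genes or within 2000 bp of them. They encode forkhead transcription factors that act mainly as repressors, pair with each other through a leucine zipper and recruit corepressor complexes such as NuRD and CtBP. In the developing lung all of them are made in the epithelium, where they are known for restraining airway and goblet genes, and Foxp2 is known for its place in the distal epithelium. The remaining family member, Foxp3, is the factor of regulatory T cells and had 7 UMIs (unique molecular identifiers, counted RNA molecules) in all nuclei together and no peak.

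The nuclei came from mouse alveolarspheres, organoids grown from type II alveolar cells (ATII, the surfactant-making cells that also renew the alveolus) of young and old mice without serum or feeder cells. On day 9 the cultures received an AAV9 virus carrying Cre recombinase alone (Cre, the control) or Cre together with Sox9 (Sox9-Cre), were kept for 4 days in a medium that induces type I differentiation, and live tdTomato+ cells were sorted, so Cre and this sort are common to all nuclei compared. Each nucleus gave both RNA and accessible DNA (ATAC), and the labels list 2 samples per group for each readout. No label gives the promoter that drives Sox9, the reporter allele of the mice, which animals gave which culture, or the age group behind each sample.

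The deposited nuclei carry 1 of 4 barcode prefixes, called libraries A, B, C and D here, and nothing ties a prefix to a labelled sample. No comparison of Sox9-Cre with Cre was therefore made, all nuclei count as 1 sample, no test was run, and the values that the results turn on are given library by library, the others with libraries pooled. Of 7224 nuclei 7184 were used: 1260 from A, 760 from B, 3236 from C and 1928 from D, with a median of 9802 to 11728 UMIs and 3776 to 13991.5 ATAC counts per nucleus by library. Across the libraries 40 of these nuclei had a barcode sequence also found under another prefix. A level is UMIs per 10000 UMIs of the nuclei summed, or counts per 10000 counts in peaks, with a 95% interval (exact Poisson for a level, exact binomial for a fold or a share) that covers counting error only.

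Nuclei were grouped without the Foxp genes or Sox9. Clusters were named from marker lists as type II-like (1465 nuclei), type I-like (2552) and transitional-like (1757, the keratin-rich state between both), each restricted to nuclei with under 5 Sox9 UMIs, and nuclei with at least 5 Sox9 UMIs made a Sox9-high group of 312. Of those 312 nuclei, 197 were in library C, 114 in D, 1 in A and 0 in B. The type II markers summed to a level of 1279 in type II-like nuclei, 330.2 in type I-like nuclei and 106 in transitional-like nuclei, and the transitional markers to 41.6, 119 and 282 in the same order. The type I markers summed to 41.5, 186 and 130, so in type I-like nuclei they stood below the type II markers. The type I-like clusters 1, 4, 5 and 7 carried 9, 8, 11 and 21 of the 23 type I markers. A small airway secretory-like cluster (157 nuclei, in C and D) was also named, and 941 nuclei stayed unnamed. Markers of other cell types were low beside those of the classes, though not all below the Foxp4 level. The 10 airway secretory markers summed to between 1.82 and 2.61 in the 4 classes (685 in airway secretory-like nuclei), the 9 immune markers summed to at most 0.142, the 8 endothelial markers to at most 0.159 the 9 mesenchymal markers to at most 0.0673 and the 4 mesothelial markers to at most 0.997, with Lum and Tcf21 at 0 in each of the 4 classes. Their part in the Foxp levels was not tested.

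Foxp1 RNA stepped down from type II-like through type I-like to transitional-like nuclei in each library. The level in type II-like nuclei was 7.18, 5.84, 7.65 and 6.57 in libraries A to D. In type I-like nuclei it was 4.95, 4.54, 5.07 and 4.68 in the same order of libraries, and in transitional-like nuclei 2.89, 2.35, 2.70 and 2.42. The ranges of the 3 classes did not overlap across the libraries. Here and below, the share of all genes or peaks with such separate ranges is not given, so it cannot be called particular to the members. With libraries pooled, transitional-like nuclei held 0.367 times the type II-like level (95% interval 0.356 to 0.379), with folds of 0.353 to 0.402 inside the libraries. Type I-like nuclei held 0.688 times the type II-like level (0.672 to 0.705), and inside the libraries the fold ran from 0.663 to 0.777.

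Foxp2 RNA split the classes differently, because type I-like nuclei kept nearly the type II-like level and only transitional-like nuclei were low. Type II-like nuclei had levels of 7.76, 6.81, 7.51 and 6.46 in libraries A to D. Type I-like nuclei had 7.11, 6.18, 7.38 and 6.97, overlapping the type II-like range. In transitional-like nuclei the level was 2.31, 2.76, 2.63 and 2.26, below every value of the other classes. The transitional-like over type II-like fold was 0.345 (0.334 to 0.356), between 0.298 and 0.406 by library. The type I-like over type II-like fold was 0.984 (0.963 to 1.01), lower in A (0.916) and B (0.908), 0.983 in C and higher in D (1.08), so the libraries did not share a direction.

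Foxp4 RNA, the scarcest of the 3 with 6117 UMIs in all against 42583 for Foxp1 and 50311 for Foxp2, followed the same order with smaller steps. Its level in type II-like nuclei was 0.812, 0.901, 0.840 and 0.847 in A to D. Type I-like nuclei showed 0.684, 0.771, 0.671 and 0.661, and transitional-like nuclei 0.574, 0.529, 0.556 and 0.575, so that the classes did not overlap across libraries. However, the interval of the type I-like over type II-like fold reached 1 in A (0.710 to 1.00) and B (0.710 to 1.03). So did that of the transitional-like over type I-like fold in D (0.756 to 1.002). The fold was 0.665 (0.618 to 0.716) for transitional-like over type II-like and 0.811 (0.759 to 0.867) for type I-like over type II-like. Counting molecules across genes says little about their relative abundance here, since Foxp1 spans 597 kb, Foxp2 541 kb and Foxp4 57.5 kb and nuclear RNA is rich in introns.

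**Figure D1:**
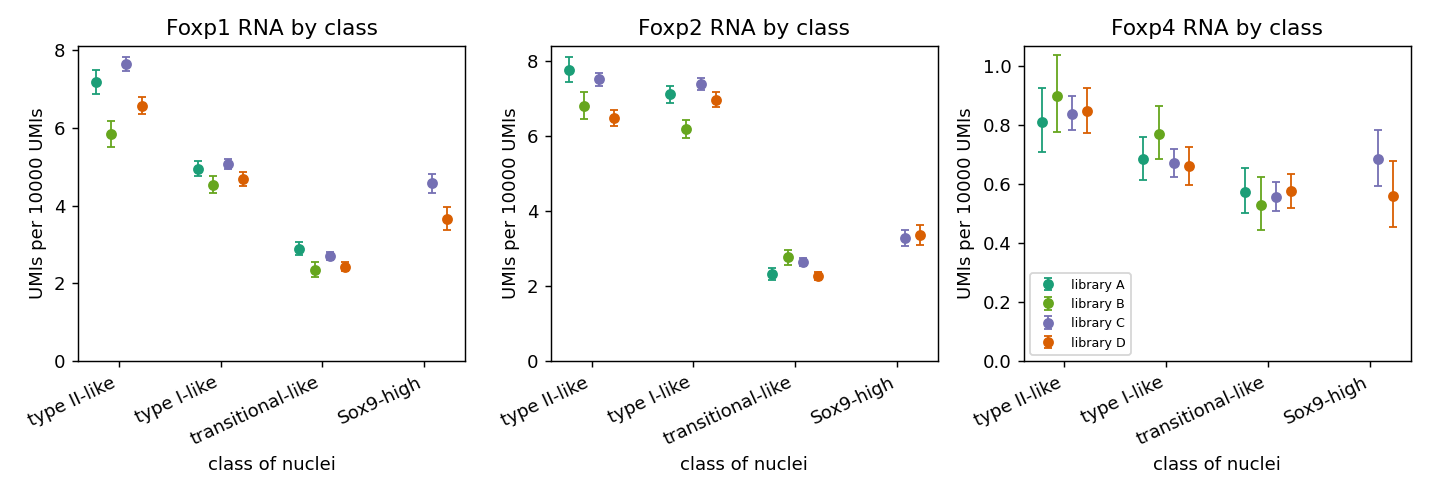
RNA of Foxp1, Foxp2 and Foxp4 (UMIs per 10000 UMIs) in 4 classes of nuclei, 1 point per library with its exact Poisson 95% interval; the single Sox9-high nucleus of library A is not drawn. Foxp1 falls in 2 steps from type II-like to transitional-like nuclei in each library, whereas Foxp2 stays near 7 in type I-like nuclei and is between 2.26 and 2.76 in transitional-like nuclei.

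Set against the rest of the transcriptome, both large genes were past 2-fold lower in transitional-like than in type II-like nuclei, as were 9.48% of the 14352 genes with at least 30 UMIs in both classes together and 15.7% of the 745 such genes that span at least 200 kb. Foxp4 was not past 2-fold. Between transitional-like and type I-like nuclei only Foxp2 of the 3 was past 2-fold lower, at 0.351 (0.340 to 0.361), where 5.72% of all genes and 16.9% of long genes were (6.05% and 6.25% were past 2-fold higher); Foxp1 stood at 0.533 and Foxp4 at 0.820. None of the 3 passed 2-fold between type I-like and type II-like nuclei, where 10.5% of genes were past it upward and 5.3% downward (29.4% and 7.3% of long genes). The contrasts share classes, so the second follows in part from the first.

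The share of nuclei with a detected molecule told the same order once depth was made equal. After thinning to 3000 UMIs, Foxp1 was detected in 81.7% of type II-like, 69.9% of type I-like and 49.7% of transitional-like nuclei (97.6%, 90.2% and 80.9% before thinning). Foxp2 was detected in 77.3%, 75.0% and 41.5% of them (95.4%, 91.8% and 68.0% before). Foxp4 was detected in 21.6%, 19.4% and 15.8% (60.2%, 46.4% and 44.8% before). Sox9-high nuclei had 59.0%, 49.7% and 16.7% for the 3 genes after thinning (90.7%, 76.6% and 52.6% before, at a median of 14368 UMIs). Thinning left out 35 type II-like, 131 type I-like and 62 transitional-like nuclei, and the median depths were 12674, 9548.5 and 11166 UMIs. At that depth 4.34% of type II-like nuclei, 8.01% of type I-like nuclei and 27.5% of transitional-like nuclei had no molecule of any of the 3 genes. No class here is known to lack these genes, so a level of free RNA could not be set beside the shares.

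Within the classes the clusters were not uniform. Of the 2 transitional-like clusters, cluster 2, which also carried 11 of 23 type I markers, had a Foxp2 level of 3.20 and cluster 3, led by Emp1, Ndrg1, Plaur and Cldn4, had 1.59, the lower in each of the 4 libraries (1.33, 1.74, 1.64 and 1.60 against 2.91, 3.46, 3.48 and 2.89). Foxp1 differed little between them, at 2.70 and 2.49, and Foxp4 hardly, at 0.563 and 0.554. Among the 4 type I-like clusters Foxp1 ran from 3.62 in cluster 7 to 8.36 in cluster 5, and Foxp2 from 4.88 in cluster 1 to 12.9 in cluster 5. Cluster 7 carried 21 of 23 type I markers, the most of any cluster, with a Foxp2 level of 6.49 and a Foxp4 level of 0.543. Airway secretory-like nuclei had low Foxp1 (2.40 in C and 1.95 in D), intermediate Foxp2 (4.62 and 3.54) and low Foxp4 (0.407 and 0.482).

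The share of UMIs from long genes also differed between the classes, not always in the direction of the members. Genes spanning at least 200 kb, the members left out, gave 6.50% of UMIs in type II-like nuclei, 7.86% in type I-like nuclei and 5.52% in transitional-like nuclei. The highest levels of Foxp1 (8.36 and 13.6) and Foxp2 (12.9 and 16.7) were in clusters 5 and 9, which were shallow, with median counts of 6031 and 6680.5 UMIs. Cluster 5 was named type I-like. Cluster 9 had 9 of 22 type II markers but only 1 among its top 50 genes, so it stayed unnamed and outside the type II-like class. Cluster 11, also shallow (54 nuclei, median 6027.5 UMIs), had the lowest levels, 1.51 for Foxp1 and 1.51 for Foxp2. Scaled per 10000 UMIs of long genes instead, the transitional-like over type II-like fold was 0.432 for Foxp1, 0.406 for Foxp2 and 0.783 for Foxp4, and the type I-like over type II-like fold was 0.569, 0.813 and 0.671. On that scale Foxp4 was higher in transitional-like than in type I-like nuclei (1.17), the opposite of its fold per 10000 of all UMIs. Without the shallow cluster 5 the type I-like over type II-like fold of Foxp2 was 0.864 and that of Foxp1 0.616. The part of nuclear RNA quality or intron content in the levels was not tested.

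**Figure D2:**
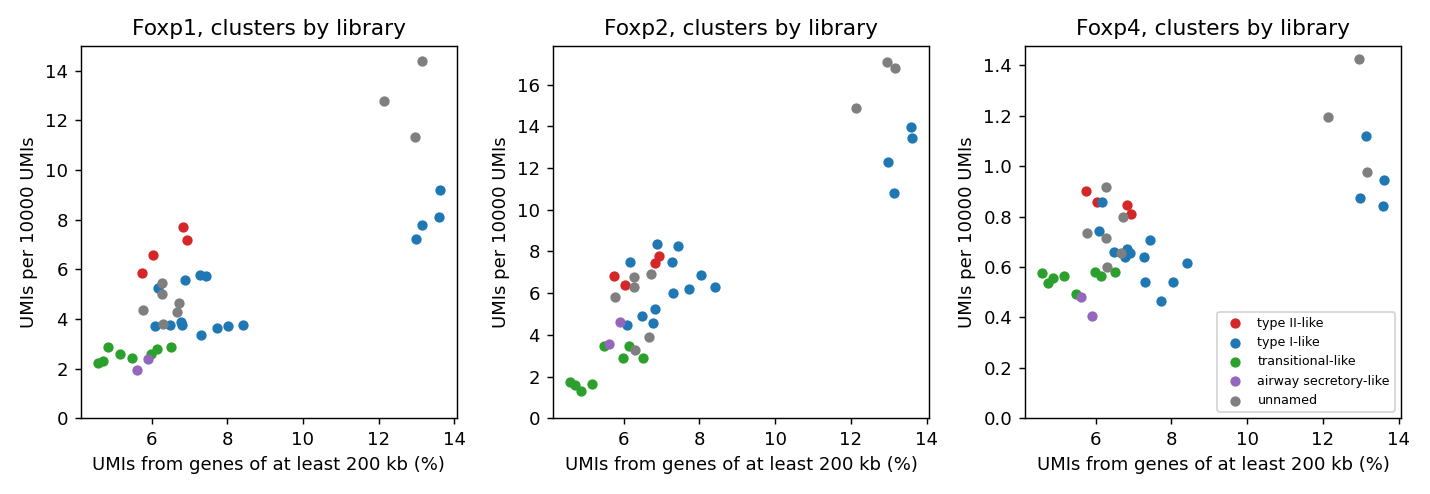
Level of each gene (UMIs per 10000 UMIs) against the percent of UMIs from genes of at least 200 kb, the members left out, 1 point for each cluster in each library with at least 30 nuclei, coloured by class. The 7 points with over 12% of UMIs from long genes have the highest Foxp2 levels, and all but 1 of them lie above 7.70, the highest type II-like point, for Foxp1, and between 5.48 and 6.94% the type II-like points lie above the transitional-like points in each panel.

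Sox9-high nuclei were compared with the other nuclei of the same library, in C and D. Foxp2 was the member that differed most: its level was 3.27 in Sox9-high nuclei and 6.30 in the others in C, and 3.35 and 5.21 in D. The folds were 0.520 (0.487 to 0.554) and 0.644 (0.592 to 0.699). Foxp1 was at 0.865 (0.818 to 0.914) in C and 0.833 (0.768 to 0.902) in D, and Foxp4 at 0.991 (0.856 to 1.14) and 0.815 (0.659 to 0.999). None of the 3 passed 2-fold in either library, where 4.46% of genes in C and 5.63% in D were past 2-fold lower and 5.72% and 4.74% past it upward. Of genes of at least 200 kb, 6.58% in C and 9.63% in D were past 2-fold lower.

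Foxp2 was lower in each higher bin of Sox9 UMIs. In C its level was 6.55 in nuclei with 0 Sox9 UMIs, 6.15 with 1, 5.24 with 2 to 4, 3.70 with 5 to 9 and 2.62 with 10 or more. In D the same bins gave 5.36, 4.92, 4.66, 4.26 and 2.54. Foxp1 showed no such run in C, with 5.19, 5.83, 5.09, 4.78 and 4.24, and in D it was 4.40, 4.53, 4.19, 4.14 and 3.23. Foxp4 stayed between 0.652 and 0.706 in C and between 0.461 and 0.733 in D, with wide intervals in the upper bins. Median depth was higher in the top bin than in the bottom one, at 15314 against 10387 UMIs in C and 15429 against 11173.5 in D. With nuclei thinned to 3000 UMIs and 2 or more Sox9 UMIs as the threshold, the Foxp2 fold was 0.599 in C and 0.519 in D.

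**Figure D3:**
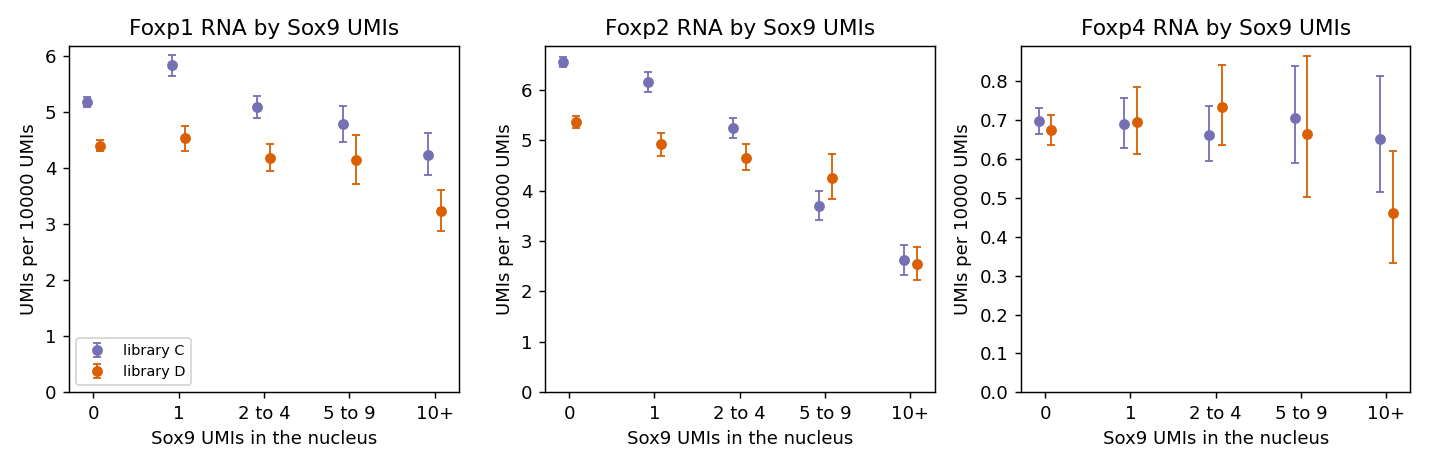
RNA of each gene (UMIs per 10000 UMIs) by the number of Sox9 UMIs in the nucleus, libraries C and D, with exact Poisson 95% intervals; 10+ stands for 10 or more. Foxp2 goes from 6.55 to 2.62 in C and from 5.36 to 2.54 in D, and Foxp4 shows no common direction.

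The makeup of the Sox9-high group differed from that of the other nuclei. It held 136 nuclei of cluster 8, an unnamed cluster led by the cartilage genes Col9a3, Col27a1 and Col11a2, 88 of the transitional-like cluster 3 and 37 of the type II-like cluster 0. Across single clusters Foxp1 had no common direction. It was not lower in the Sox9-high nuclei of clusters 0 and 3, unlike over all clusters (0.865 in C and 0.833 in D). In cluster 0 the fold over nuclei with under 5 Sox9 UMIs was 1.15 in C and 1.01 in D, and in cluster 3 it was 1.01 and 1.14. Foxp2 stayed below 1 inside them, at 0.838 in C and 0.770 in D in cluster 0, and 0.779 and 0.851 in cluster 3. In cluster 3 the Foxp2 level at 1 to 4 Sox9 UMIs (1.40 in C, 1.195 in D) was already near that at 5 or more (1.32 and 1.39). Cluster 8 showed the widest gap for Foxp2, with a level of 2.68 at 5 or more Sox9 UMIs against 5.27 at 1 to 4 in C (96 and 85 nuclei) and 2.16 against 4.58 in D (40 and 43 nuclei). In the same cluster Foxp1 was 3.88 against 5.02 in C and 3.31 against 4.62 in D. Its few nuclei with 0 Sox9 UMIs (24 in C and 10 in D) had Foxp1 levels of 3.72 and 2.42, below those of the Sox9-high nuclei, and Foxp2 levels of 5.47 and 3.03, above them. Cluster 1 held 8 and 9 Sox9-high nuclei, with Foxp1 levels of 3.52 in C and 2.59 in D against 3.82 and 3.97 at 0 Sox9 UMIs. These within-cluster comparisons were chosen after the pooled values were seen, and the Sox9-high nuclei of cluster 0 numbered 23 in C and 14 in D.

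Accessibility over the whole genes hardly followed the RNA. Summed over the 50 peaks of Foxp1 the transitional-like over type II-like fold was 0.890 (0.860 to 0.920), over the 30 peaks of Foxp2 0.970 (0.915 to 1.03) and over the 8 peaks of Foxp4 1.13 (1.06 to 1.21). For type I-like over type II-like nuclei the folds were 0.912, 1.04 and 1.15. Sox9-high nuclei stood within 0.990 to 1.08 of the other nuclei for all 3 genes in both C and D. Foxp2, with an RNA fold of 0.345 for transitional-like over type II-like nuclei, had almost the same summed accessibility in both of these classes.

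Single peaks did differ, and Foxp1 showed it at a start inside the gene. Foxp1 lies on chromosome 6 (GRCm38, 98925342 to 99522746) on the minus strand, and the RefSeq promoter table gives 3 starts, an outer one at 99520993, a middle one at 99266515 inside the gene and an inner one at 99028298. The 250 bases before each start are printed because the peaks over them behaved differently. Capitals mark matches on either strand to the forkhead words TGTTTAC and TGTTTAT, or with another base in second place the words TATTTAC and TATTTAT (RefSeq sequence, GRCm38.p6, minus strand).
Foxp1 outer start, chr6:99520994-99521243: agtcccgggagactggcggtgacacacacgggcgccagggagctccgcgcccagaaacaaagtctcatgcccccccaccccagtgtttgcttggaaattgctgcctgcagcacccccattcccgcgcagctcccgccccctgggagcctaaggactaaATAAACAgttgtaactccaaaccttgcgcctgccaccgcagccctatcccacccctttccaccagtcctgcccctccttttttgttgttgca
Foxp1 middle start, chr6:99266516-99266765: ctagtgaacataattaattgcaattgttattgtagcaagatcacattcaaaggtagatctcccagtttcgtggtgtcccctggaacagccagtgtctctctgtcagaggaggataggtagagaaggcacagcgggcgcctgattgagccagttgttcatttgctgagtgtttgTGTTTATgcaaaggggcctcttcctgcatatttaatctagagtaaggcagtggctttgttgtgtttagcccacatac
Foxp1 inner start, chr6:99028299-99028548: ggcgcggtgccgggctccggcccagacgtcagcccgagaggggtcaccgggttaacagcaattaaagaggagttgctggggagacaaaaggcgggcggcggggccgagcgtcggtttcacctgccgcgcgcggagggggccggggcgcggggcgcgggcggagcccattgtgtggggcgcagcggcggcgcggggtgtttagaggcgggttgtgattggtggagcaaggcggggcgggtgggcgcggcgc
The outer window holds the word ATAAACA, the reverse complement of TGTTTAT, 92 bases before the start, the middle window holds TGTTTAT 77 bases before it, and the inner window holds none. Of the 32851 promoter windows of that length in the table, 13.6% hold at least 1 of these words. GC content was 60.8%, 45.2% and 74% from outer to inner, with 11, 3 and 34 CpG dinucleotides, against a median of 52.4% and 6 over all windows. Of the SOX words AACAAT and AACAAAG on either strand, the outer window holds 1 match, the middle window 2 and the inner window 0, and 13.8% of windows hold at least 1.

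The peak over the middle start (chr6:99265812-99266731) was open in the order of Foxp1 RNA across type II-like, type I-like and transitional-like nuclei. Its accessibility in type II-like nuclei was 0.333, 0.381, 0.297 and 0.288 in A to D. Type I-like nuclei had 0.181, 0.195, 0.185 and 0.202, and transitional-like nuclei 0.152, 0.144, 0.143 and 0.134. The 3 classes did not overlap across libraries. The fold was 0.632 (0.557 to 0.717) for type I-like and 0.466 (0.3999 to 0.542) for transitional-like over type II-like nuclei. The peak over the outer start (chr6:99520819-99521773) was at 0.824 (0.725 to 0.937) and 0.807 (0.702 to 0.927), and its libraries overlapped between classes. The peak over the inner start (chr6:99027972-99028827) went the other way, at 1.55 (1.30 to 1.86) in type I-like and 1.40 (1.16 to 1.70) in transitional-like nuclei, though library B had 0.947 for the latter. The RefSeq span of Foxp1 ends beyond the outer start, at 99522746, which is not among the 3 starts. With libraries pooled, the peak over that end (chr6:99522492-99523420) was at 0.246 in type II-like nuclei. It was at 0.270 in type I-like and 0.284 in transitional-like nuclei, with overlapping intervals, so it did not follow the order of the RNA. In Sox9-high nuclei the middle start was at 0.934 (0.694 to 1.23) of the other nuclei in C and 0.870 (0.612 to 1.205) in D. Other groups did not keep the order of the RNA. With libraries pooled, the middle start was at 0.216 in airway secretory-like, 0.193 in Sox9-high and 0.191 in type I-like nuclei. Foxp1 RNA in these groups was 2.13, 4.22 and 4.88.

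The nearest neighbours of the middle start shared its direction. A peak downstream of it (chr6:99252516-99253469) was low in type I-like and transitional-like nuclei, with levels of 0.0846, 0.127, 0.115 and 0.0960 in A to D in type II-like nuclei and at most 0.0245 in any library in type I-like or transitional-like nuclei. The folds were 0.178 (0.127 to 0.246) and 0.185 (0.126 to 0.265), the lowest of the Foxp1 peaks in both contrasts. Airway secretory-like nuclei had 0.0541 on 10 counts and Sox9-high nuclei 0.0350 on 17 counts. The peak upstream at chr6:99275538-99276492, the most open of these in type II-like nuclei at 0.353, was at 0.612 and 0.451. By contrast 2 weak peaks in the first part of the gene were more open in transitional-like than in type II-like nuclei: chr6:99446683-99447507 had 61 counts there and 6 in type II-like nuclei, a fold of 8.68 (3.76 to 24.6), and chr6:99466084-99467014 had 82 and 10, a fold of 6.998 (3.62 to 15.1). They were not particular to that class, since airway secretory-like nuclei had a level of 0.0324 at the first, beside 0.0322, and Sox9-high nuclei 0.0288 at the second, beside 0.0432, on 6 and 14 counts. A peak further downstream of the middle start (chr6:99217525-99218486) also went the other way. Its level was 0.0235 in type II-like, 0.0521 in type I-like and 0.0806 in transitional-like nuclei. The peaks named here were picked after their values were seen.

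**Figure D4:**
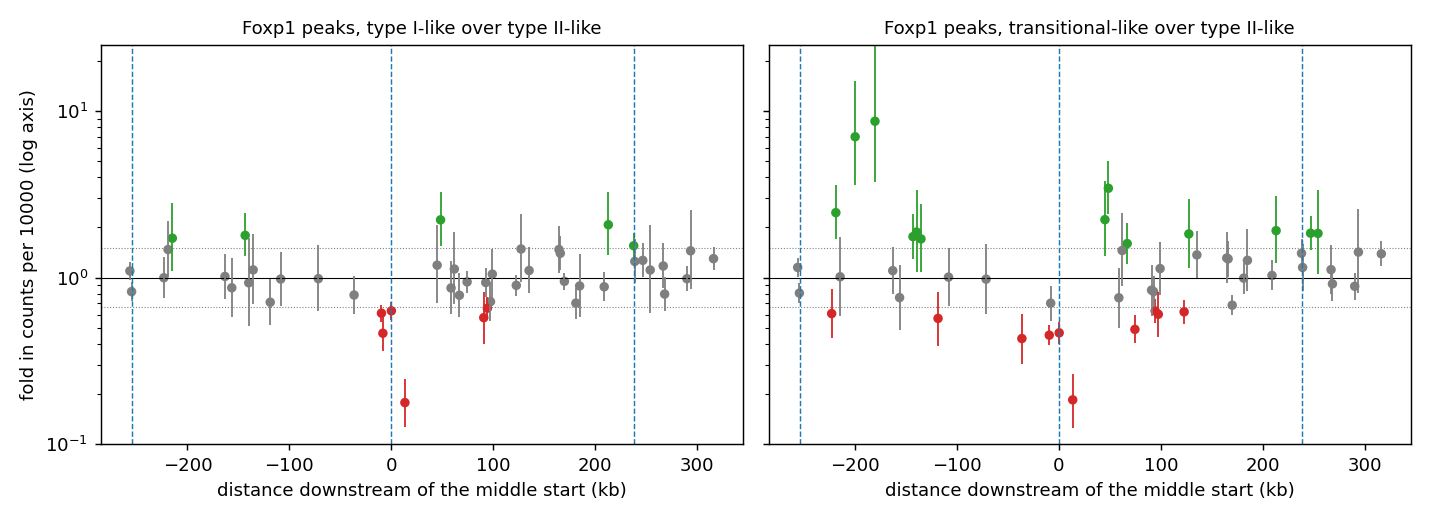
Fold in accessibility (log axis) of each Foxp1 peak with at least 50 counts against its distance downstream of the middle start, with exact 95% intervals; green is past 1.5-fold higher, red past 1.5-fold lower, dashed lines are the 3 starts and dotted lines 1.5-fold in either direction. The peaks around the middle start are low in both panels, down to 0.178 and 0.185, and the highest folds, 8.68 and 6.998, lie between the outer and the middle start.

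Counted over the gene, 13 of the 50 Foxp1 peaks (26%) were past 1.5-fold higher and 10 (20%) past 1.5-fold lower in transitional-like than in type II-like nuclei, where 23.8% and 15.6% of all 101075 peaks tested were. For 22 of those 23 peaks every library with a value lay on the same side. In type I-like nuclei 5 of 48 were higher and 6 lower, against 15.9% and 9.37% of all peaks, and 8 of those 11 kept 1 side in every library with a value. These shares were near those of all peaks, so the gene as a whole did not stand apart. Between transitional-like and type I-like nuclei 10 of 50 were higher and 4 lower, where 15.6% and 10.6% of all peaks were, and 11 of those 14 kept 1 side. The peaks were called on the same libraries pooled, so agreement between libraries was in part fixed by the call. The matching share over all called peaks is not given, so these counts say nothing particular about Foxp1.

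The peak at the start of Foxp2 stayed open where Foxp2 RNA was low. The promoter table holds no Foxp2 entry, so the start used is where its RefSeq span begins. Starts inside the gene were not examined. Foxp2 (chr6:14901349-15441977) has a peak over that start (chr6:14900647-14901481) with an accessibility of 0.440, 0.470, 0.421 and 0.501 in type II-like nuclei of A to D. It was 0.535, 0.624, 0.443 and 0.443 in type I-like nuclei, and 0.461, 0.457, 0.438 and 0.443 in transitional-like nuclei, so that the classes overlapped. The transitional-like over type II-like fold was 0.979 (0.886 to 1.08), from 0.884 to 1.05 by library, beside an RNA fold of 0.345. In Sox9-high nuclei it was 0.876 (0.710 to 1.07) of the other nuclei in C and 0.939 (0.752 to 1.16) in D, beside RNA folds of 0.520 and 0.644. Of its 21 tested peaks 4 were past 1.5-fold higher and 5 lower in transitional-like than in type II-like nuclei, near the 23.8% and 15.6% of all peaks. A weak peak at chr6:15398852-15399796 was low in transitional-like nuclei against both others, at 0.460 (0.296 to 0.704) and 0.317 (0.213 to 0.460), and was low in Sox9-high nuclei too, with intervals that reach 1 (0.486, 0.176 to 1.08 in C; 0.610, 0.194 to 1.47 in D). Its counts were few, with 35 in transitional-like nuclei, and library B had none in type II-like nuclei. Another at chr6:15090405-15091550 was higher in type I-like nuclei at 3.37 (2.10 to 5.65).

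Foxp4 (chr17:47867133-47924632, minus strand) was the smallest of the 3 loci. The peak over its start (chr17:47924171-47925165) was at 0.316, 0.305, 0.335 and 0.370 in type II-like nuclei of A to D, at 0.343 to 0.432 in type I-like nuclei and at 0.336 to 0.417 in transitional-like nuclei, with folds of 1.15 and 1.04 over type II-like. Only 1 of its 8 peaks was past 1.5-fold between transitional-like and type II-like nuclei, chr17:47887638-47888461 inside the gene, at 2.15 (1.60 to 2.90), where 23.8% of all peaks were past 1.5-fold higher and 15.6% lower. None passed it between type I-like and type II-like nuclei, where 15.9% and 9.37% of all peaks did, and counts over 8 peaks are too few to set the gene apart from those shares. The level of that intragenic peak was 0.0617, 0.120, 0.0927 and 0.0864 in transitional-like nuclei of A to D and at most 0.0443 in type II-like nuclei of any library, which rest on 2 to 35 counts. The same peak was higher in Sox9-high nuclei, at 2.30 (1.56 to 3.30) in C and 2.97 (1.97 to 4.36) in D, while Foxp4 RNA was not.

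**Figure D5:**
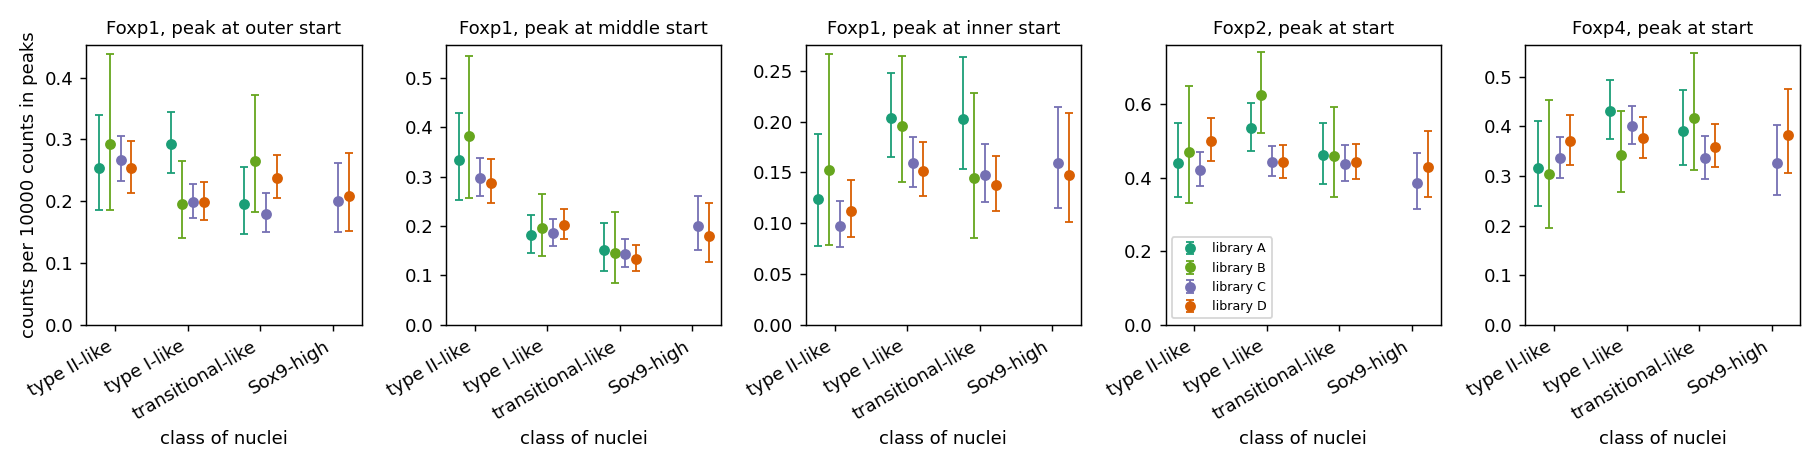
Accessibility (counts per 10000 counts in peaks) of the peaks over the 3 Foxp1 starts and the Foxp2 and Foxp4 starts by class, 1 point per library with its exact Poisson 95% interval. The peak at the middle Foxp1 start goes from 0.288 to 0.381 in type II-like nuclei down to 0.134 to 0.152 in transitional-like nuclei, and the peak at the Foxp2 start stays level.

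In all, 6 weak peaks of Foxp1 were past 1.5-fold higher in Sox9-high than in other nuclei in both C and D, of the 49 tested in both (12.2%, where 9.07% of all peaks were), and 4 were lower in both (8.16%, where 6.98% of all were). Examples are chr6:99405814-99406767, at 4.01 (2.32 to 6.66) in C and 3.75 (1.85 to 7.08) in D, and chr6:99011714-99012673, at 3.05 (1.68 to 5.25) and 4.13 (2.14 to 7.54). These rest on 13 to 21 counts in the Sox9-high nuclei of a library. For Foxp2 it was 2 higher and 2 lower of 19, and for Foxp4 1 higher and 0 lower of 8.

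Partner and relative genes were read from lists of named genes. Of 20 other forkhead genes 14 were tested between transitional-like and type II-like nuclei, and 1 was past 2-fold higher, Foxq1 at 7.61 (6.67 to 8.72), and 1 lower, Foxo4 at 0.389 (0.282 to 0.531), with a list median of 1.16 beside 1.09 over all genes, of which 14.6% were past 2-fold higher and 9.48% lower. Foxo1, a forkhead factor downstream of insulin signalling, was at 0.513 (0.474 to 0.555). Foxa2, a forkhead activator of lung epithelium, was at 1.24 and Foxa1 at 0.970. The 17 corepressor genes, the NuRD and CtBP proteins that Foxp factors bind, had a median of 0.962, and 1 was past 2-fold lower (9.48% of all genes were), the remodeller Chd3 at 0.414 (0.389 to 0.442). Ncor1, a corepressor scaffold, stood at 0.512 (0.495 to 0.529), while Hdac2 was at 0.824 and Ctbp1 at 0.847. Between type I-like and type II-like nuclei Foxq1, at 2.80, was the 1 forkhead gene of 13 tested past 2-fold, and no corepressor was, where 10.5% of all genes were past it upward and 5.3% downward, with Chd3 at 0.575 and Ncor1 at 0.725. In Sox9-high nuclei none of the 17 passed 2-fold in C, where 5.72% of all genes were past it upward and 4.46% downward, or in D, where 4.74% and 5.63% were. Foxj1, the ciliated cell factor, had 1 UMI there in each library against 246 and 154 in the others, ratios of 0.049996 (0.00126 to 0.281) and 0.0851 (0.00214 to 0.481). The other nuclei include the airway secretory-like cluster, where the 8 ciliated markers summed to 10.1 against 0.174 in Sox9-high nuclei, and which held 0 Sox9-high nuclei.

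Lung genes reported to be under Foxp control are in part class markers here, so their direction between classes is not independent of the classes. Of the 4 tested of 7, 1 was past 2-fold higher and 2 lower in transitional-like than in type II-like nuclei, beside 14.6% and 9.48% of all genes. Sftpc, a surfactant gene and a type II marker, was at 0.0903 in transitional-like over type II-like nuclei, and Pdpn, a type I marker, at 0.831 (0.664 to 1.04). The secretory gene Scgb1a1 was at 2.10 (1.87 to 2.37), the goblet regulator Spdef at 0.310 (0.128 to 0.682) on 9 and 26 UMIs, and the goblet genes Agr2, Muc5ac and Muc5b had too few UMIs to be tested. Among type II-like, type I-like and transitional-like nuclei, Scgb1a1 was highest in type I-like nuclei. It was past 2-fold higher there than in type II-like nuclei, and past 2-fold lower in transitional-like than in type I-like nuclei. Among 9 partner factors of the lung epithelium, Nkx2-1, the lung lineage factor, was at 0.592 (0.572 to 0.612) in transitional-like over type II-like nuclei and 1.09 in type I-like over type II-like nuclei, and like Foxp2 it was lowest in transitional-like nuclei. In that list 3 factors were past 2-fold higher and 3 lower in the same contrast, beside 14.6% and 9.48% of all genes, and Hopx and Etv5 are class markers. Cebpa, Etv5 and Id2 were past 2-fold lower in transitional-like than in type II-like nuclei, at 0.107, 0.0618 and 0.159, and the type I marker Hopx at 5.61, Sox2 at 2.24 on 25 and 10 UMIs, and Klf5 at 2.18 past 2-fold higher. Gata6 stood at 1.04.

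The genes whose levels ran most like each member were found over 39 units of 1 cluster in 1 library, among 6702 genes with at least 2000 UMIs, by Pearson's r of log2(UMIs per 10000 + 0.05). For Foxp1 they were Maml3 (r = 0.960), Taok3, Ncor1, Pard3 and Ubr1 (0.952). For Foxp2 they included Alcam (0.962), Mir99ahg, Atp8a1 and Ssh2 (0.9501), and for Foxp4 Ahcyl2 (0.905), Myo5c, Maml3, Rai14 and Pard3 (0.890). Foxp1 correlated with Foxp2 at 0.879 and with Foxp4 at 0.885, and Foxp2 with Foxp4 at 0.723. The units share nuclei depth and library, and the summed long genes gave r = 0.787 with Foxp1, 0.845 with Foxp2 and 0.653 with Foxp4.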

How the data were processed

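Gene counts (UMIs) and ATAC counts per peak and nucleus were used as deposited; the authors' steps before that are known only as Cell Ranger 6.0.1, Seurat 4.3.0, Signac 1.10.0, with GRCm38 (mm10) as the build, per the submitters' processing notes, which assign them no role here. The peak caller and the handling of introns: not given in the sources used here. To be kept, a nucleus needed at least 500 UMIs, 300 genes and under 20% mitochondrial counts, and 25 of 7224 did not pass; the doublet caller marked 15 (0.208%), which is too few to call doublets removed, and these were left out too. Clusters were made with scanpy 1.11.5 and leidenalg 0.10.2 (2000 variable genes, 30 components, 15 neighbours, resolution 0.8), leaving out Foxp1 to Foxp4 and Sox9. A cluster was named where at least 30% and at least 3 markers of a list were each in 5% of its nuclei and 1.5-fold above the rest, with 3 of them among its top 50 genes.

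RNA levels were called past 2-fold (at least 30 UMIs in both classes together) and peaks past 1.5-fold (at least 50 counts), with counts under 3 set to 3 for the call alone, while printed ratios use the counts as they are. Genes named are the 3 members, the 5 genes most like each in level, and list members past 2-fold or of a role named. A gene that this rule names is not reported here. The members and lists were chosen with earlier results of these data known. The calling step was tested on simulated data. RefSeq positions (GRCm38.p6) were found for 26296 genes (81.4%) and used for gene length. Alternatives were other resolutions, filters, class definitions, scalings, Sox9 thresholds and peak windows, and leaving out each library.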

Additional observations from a re-analysis of the deposited data

How the results depend on the processing

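The alternatives were run for the members' RNA, their summed peaks and the 5 start peaks, not for other single peaks or list genes. Foxp1 and Foxp2 stayed lower in transitional-like than in type II-like nuclei under each of the 14 alternatives run for RNA. For type I-like over type II-like nuclei the fold of Foxp1 and Foxp2 was 0.654 and 0.907 with clusters at resolution 0.4, 0.736 and 1.23 with at least 1000 UMIs per nucleus, 0.644 and 1.02 without the 5% highest doublet scores, 0.611 and 0.935 with classes from marker scores, 0.719 and 1.06 as a mean over nuclei, and 0.616 and 0.864 without shallow clusters. At resolution 1.2 it was 0.918 for Foxp2, and with equal weight per library 0.709 for Foxp1. The alternatives that recluster the nuclei also change which clusters are named. With at least 1000 UMIs the only type I-like cluster held 786 nuclei, and clusters of 1126 and 648 nuclei stayed unnamed. The main type I-like class held 2552 nuclei. For transitional-like over type II-like nuclei the pair was at 0.401 and 0.384 with at least 1000 UMIs, 0.356 and 0.362 without the highest doublet scores, and 0.349 and 0.280 with marker scores, Foxp2 at 0.357 at resolution 0.4, and Foxp1 at 0.388 at resolution 1.2 and 0.381 with equal weight. With marker genes left out of the total Foxp1, Foxp2 and Foxp4 were at 0.635, 0.908 and 0.748 (type I-like) and 0.334, 0.314 and 0.606 (transitional-like), and per 10000 UMIs of long genes at 0.569, 0.813 and 0.671 and at 0.432, 0.406 and 0.783. Without library C Foxp1 was at 0.720 and 0.386, and without library D Foxp2 was at 0.952 for type I-like RNA and 1.099 for its summed peaks.

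For Sox9-high over other nuclei Foxp2 was at 0.614 in C and 0.721 in D with 3 or more Sox9 UMIs as the threshold. With 10 or more, Foxp1 and Foxp2 were at 0.806 and 0.424 in C and 0.736 and 0.491 in D, and thinned to 3000 UMIs at 0.818 and 0.599 in C and 0.737 and 0.519 in D. Inside cluster 3 Foxp1, Foxp2 and Foxp4 were at 1.01, 0.779 and 1.30 in C and 1.14, 0.851 and 0.595 in D, and inside cluster 0 at 1.15, 0.838 and 1.16 in C and 1.01, 0.770 and 1.21 in D. The scaling by long genes, the shallow clusters and the single clusters were alternatives chosen after seeing the data, and the cause of these moves was not tested. The peak at the middle Foxp1 start ran from 0.599 to 0.683 for type I-like and from 0.424 to 0.526 for transitional-like over type II-like nuclei over 7 alternatives. Depth limits Foxp4 and the weak peaks, which rest on few counts. No paired analysis was possible because the barcodes carry no sample or replicate number.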
